A study of Saccharomyces cerevisiae with 4 samples.

Results

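A family of genes for glucose uptake and glucose sensing in budding yeast was followed in cells with and without CHD1, the gene of a chromatin-remodelling ATPase. They are the hexose transporter genes HXT1 to HXT7, the galactose transporter gene GAL2 and the glucose sensor genes SNF3 and RGT2, 10 of the 5816 genes in the deposited tables. The genes were chosen by name, as a family whose read numbers in the deletion and in wild type were already known. Their difference between the genotypes is therefore given as a description. Both groups were Saccharomyces cerevisiae of the BY4741 laboratory background, a derivative of the reference strain S288C, taken at mid-log phase from shaken cultures at 30 °C in rich glucose medium (YPD). The wild type carried CHD1 and the other strain lacked it, with 2 libraries of total RNA for each genotype. The labels do not tie the replicates to separate cultures, so the error behind each p-value is the spread of these 4 libraries and may be technical alone, and they do not say whether the deletion strain was a single clone.

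Budding yeast takes up glucose by facilitated diffusion through a family of related membrane carriers, and it changes which carriers it makes according to how much glucose is outside. Low-affinity carriers (Hxt1 and Hxt3) serve cells in plentiful glucose, and high-affinity carriers (Hxt2, Hxt6 and Hxt7) serve cells in scarce glucose. Snf3 and Rgt2 resemble the carriers but act as receptors: when glucose binds, the corepressors Mth1 and Std1 are destroyed and the DNA-binding repressor Rgt1 leaves the HXT promoters. A separate repressor, Mig1, keeps several carrier genes low while glucose is abundant.

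HXT6 and HXT7 are near copies, and the sequences at which they differ bear on every value given for them. Their coding sequences, each of 1713 bases, differed at 3 positions, which all lie near the 3′ end. Positions count from 1 at the A of the start codon, and the HXT6 base stands first: T1632C, G1666A and T1677C. The middle difference, G1666A, is the only one of the 3 that changes a residue. It is shown on the RefSeq R64 genome (the chromosomes of sacCer3), in a stretch that also holds T1677C, with the differing bases of both positions in capitals.
HXT6 (chrIV:1159640-1159670, minus strand): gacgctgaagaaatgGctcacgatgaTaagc
HXT7 (chrIV:1154248-1154278, minus strand): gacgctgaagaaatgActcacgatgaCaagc
Of the 1664 stretches of 50 bases in the coding sequence of HXT6, 1582 (95.1%) occur elsewhere in the genome, and the same numbers hold for HXT7. The corresponding share was 14.9% for HXT3, 4.99% for HXT1, 4.05% for HXT5 and 2.5% for HXT4. It was 0 for HXT2, GAL2, SNF3 and RGT2.

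The upstream regions of the carriers hold letters that match the sites of their known regulators. They were searched on both strands, over the 600 bases before each start codon, for the Rgt1 motif CGGANNA, for the Mig1 motif in its form GCGGGG or CCGGGG or with a T before the run of G (GTGGGG or also CTGGGG), and for the stress response element (STRE) AGGGG, which Msn2 and Msn4 bind. The letters of the Mig1 and STRE motifs allow few overlaps, and in the 10 genes 0 of the 18 Mig1 matches overlapped an STRE match. Of 5790 genes with such a window, 48.6% held an Rgt1 match, 27.9% a Mig1 match and 40% an STRE match. HXT3 held 7 Rgt1 matches, and no other window of the 5790 held as many. HXT1 held 4, a number that 60 windows (1.04%) reached, and HXT2 and HXT5 held 3 each, which 219 windows (3.78%) reached. HXT4 and GAL2 held 2 each and HXT6 held 1. HXT7, SNF3 and RGT2 held 0, which says only that these letters are not in this window. The stretches that carry the Rgt1 matches of the low-affinity pair are shown in the direction of the gene, with the matches in capitals.
HXT1 (chrVIII:292850-293109, minus strand): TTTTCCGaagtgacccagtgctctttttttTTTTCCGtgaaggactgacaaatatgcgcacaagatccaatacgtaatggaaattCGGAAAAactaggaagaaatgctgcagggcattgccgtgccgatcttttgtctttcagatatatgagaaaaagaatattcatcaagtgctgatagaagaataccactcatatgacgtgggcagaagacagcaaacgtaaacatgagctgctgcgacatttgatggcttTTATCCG
HXT3 (chrIV:1164973-1165198, minus strand): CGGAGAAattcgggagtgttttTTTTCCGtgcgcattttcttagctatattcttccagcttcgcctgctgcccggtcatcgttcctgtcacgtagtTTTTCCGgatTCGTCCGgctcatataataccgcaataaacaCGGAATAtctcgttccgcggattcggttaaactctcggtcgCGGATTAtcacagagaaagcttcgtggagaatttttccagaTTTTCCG
The HXT1 stretch runs from position -484 to -225 and the HXT3 stretch from -538 to -313, counted from the base before the start codon as -1.

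Mig1 matches were spread differently. HXT4 held 4, a number that 12 windows (0.207%) reached, HXT2 and HXT6 held 3 each, HXT1, HXT3, HXT7 and SNF3 held 2 each, and HXT5, GAL2 and RGT2 held 0. In HXT2 a Mig1 match lies between Rgt1 matches from -430 to -391, in HXT4 a pair of Mig1 matches lies from -250 to -181, and in HXT7 a Mig1 match and an STRE lie from -262 to -239. These stretches are shown with all of those matches in capitals.
HXT2 (chrXIII:287649-287688, plus strand): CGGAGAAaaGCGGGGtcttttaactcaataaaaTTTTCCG
HXT4 (chrVIII:288992-289061, minus strand): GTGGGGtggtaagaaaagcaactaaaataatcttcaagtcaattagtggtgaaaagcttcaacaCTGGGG
HXT7 (chrIV:1156167-1156190, minus strand): CCCCACcatctttcgagatCCCCT
HXT7 held 3 STRE matches, which 146 windows (2.52%) reached, HXT5, HXT6 and GAL2 held 2 each, and HXT2 and SNF3 held 0. A match is a description of letters and no measurement of binding.

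**Figure D1:**
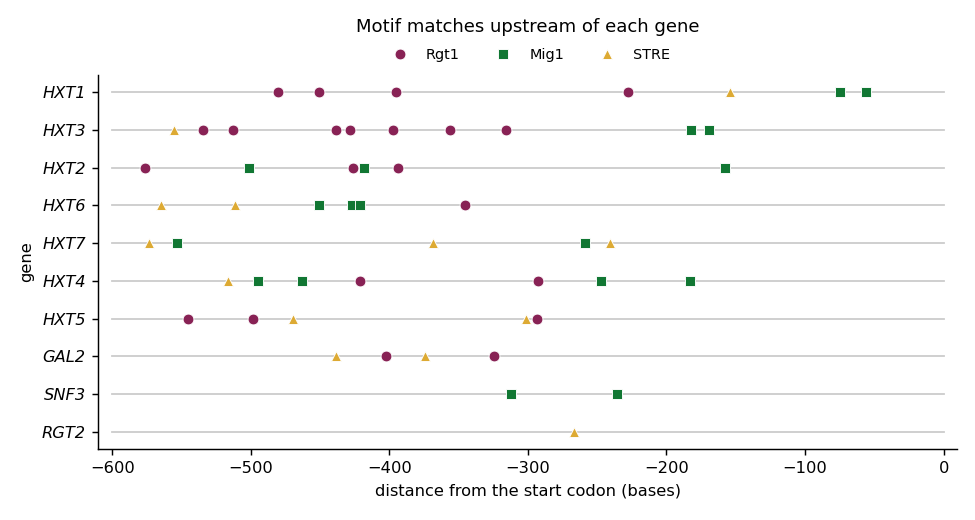
Matches to the Rgt1, Mig1 and STRE motifs on either strand in the 600 bases before the start codon of each gene; the x axis is the distance from the start codon in bases and each symbol is a match. The 7 Rgt1 matches of HXT3 and the 4 of HXT1 lie farther from the start codon than their Mig1 matches, and HXT7 has 0 Rgt1 matches.

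Reads on genes numbered 2145684 and 2824770 in the wild-type libraries against 4117998 and 2597514 for the deletion. CHD1 itself was counted 211 and 396 times in wild type and 7 and 3 times in the deletion, so the labels and the counts of the targeted gene point the same way. The 8 carrier genes took 0.124% and 0.122% of gene reads in the wild-type libraries (95% Wilson intervals 0.120 to 0.129 and 0.118 to 0.126) and 0.182% and 0.185% in the deletion libraries (0.178 to 0.186 and 0.180 to 0.191). Wilson intervals cover counting error only. Levels are compared between genes per length, as reads per kilobase of the deposited gene length per 1e6 reads on TMM-scaled library sizes (RPKM), and between libraries as CPM, the same without the length, each as mean ± SD with n = 2.

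In wild type HXT3 and HXT2 stood far above the other carriers. HXT3 had 214 ± 3.06 RPKM and HXT2 194 ± 17.6 RPKM; the libraries of these genes did not overlap, but the lower HXT3 value, 212, was close to the higher HXT2 value, 206. HXT7 (98.2 ± 4.73) and HXT6 (92.5 ± 4.23) came next, and their libraries overlapped. Below them stood HXT4 at 47.7 ± 3.27 and HXT1, the other low-affinity carrier gene, at 31.2 ± 3.72 RPKM. The sensor genes were much lower, RGT2 at 11.1 ± 0.493 and SNF3 at 6.31 ± 0.158 RPKM, and GAL2 (3.38 ± 0.4995) and HXT5 (2.05 ± 0.182) were lowest.

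In the deletion, on the counts as deposited, the order within the high-affinity carriers was the other way round. HXT3 was again first at 253 ± 23.9 RPKM, but HXT7 (195 ± 32.3) and HXT6 (184 ± 31.5) now stood above HXT2 (155 ± 3.13). The lowest HXT6 value, 162, lay just above the highest HXT2 value, 157. That order rests on HXT6 and HXT7 each holding only their own reads, which was not tested. With the reads of the pair counted once, HXT7 would have 97.6 ± 16.1 and HXT6 92.1 ± 15.7 RPKM in the deletion, below HXT2. In wild type HXT7 and HXT6 would then have 49.1 ± 2.36 and 46.2 ± 2.12 RPKM, level with HXT4. That counting is an extreme case, since reads counted on both genes add equally to each and the counts of HXT6 and HXT7 were not equal. HXT4 (88.5 ± 1.42) and HXT1 (54.7 ± 14.9) kept their places, as did RGT2 (11.4 ± 0.714) and SNF3 (6.14 ± 0.127). HXT5 (4.06 ± 1.39) and GAL2 (3.88 ± 0.255) overlapped.

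**Figure D2:**
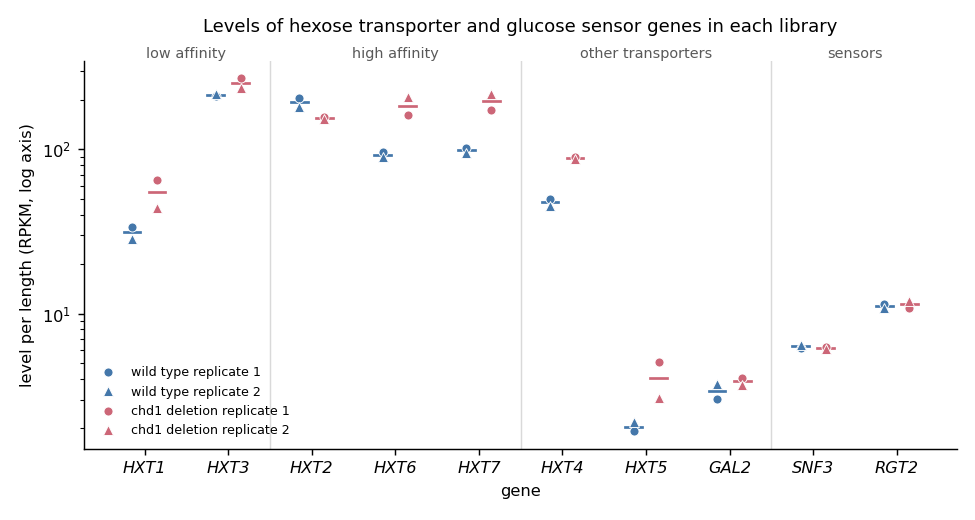
Level of each gene in each library, in RPKM on a log axis; circles and triangles are replicates 1 and 2, blue is wild type, red is the deletion and horizontal dashes are group means. On the counts as deposited HXT6 and HXT7 lie below HXT2 in both wild-type libraries and above it in both deletion libraries; with the reads of the pair counted once they would lie below it in the deletion too, at 92.1 and 97.6 RPKM on average, while the sensors SNF3 and RGT2 overlap between the genotypes.

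The deletion was compared with wild type in a fit over all 5488 genes with enough reads, and all 10 genes of this family were among them. With edgeR's quasi-likelihood test and Benjamini-Hochberg adjustment over those genes, 4.74% of all genes passed a threshold of 0.05 and 1.68% passed it as higher in the deletion, 92 of the 260 genes that passed. Scaled to total gene counts instead, 176 of 241 were higher, with the median of all genes at 0.11, and scaled to the deposited library constants 34 of 62 were. HXT1, HXT4, HXT6 and HXT7 passed, all 4 higher in the deletion, 0 passed as lower and 6 did not pass. At an unadjusted p under 0.05 there were 6 higher and 1 lower, beside 468 higher and 605 lower of all genes tested (19.6%). DESeq2 called 3 higher and 0 lower and gave 5 of the 10 no adjusted p; over all genes it called 23 higher and 143 lower, 15.4% of the 1078 with an adjusted p. The family median was a log2 difference of 0.54, beside 0.004 over all genes tested. The near copies HXT6 and HXT7 enter these counts and the median as separate genes. With the pair summed to 1 feature, 3 passed. Since these genes were picked with this difference known, nothing is read from those numbers. The CPM of deletion and wild-type libraries did not overlap for 7 of the 10 genes, as was the case for 49.3% of all genes tested.

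Among the high-affinity carriers, HXT7 was counted 398 and 510 times in wild type and 1433 and 1129 times in the deletion. Both deletion libraries, at 333 and 422 CPM, stood above both wild-type libraries, at 196 and 183 CPM. The log2 difference was 0.99 ± 0.12 (SE), a 1.98-fold higher level. In such bulk cultures, more cells that express a gene and more RNA per cell cannot be told apart. HXT6, its near copy, was counted 371 and 477 times in wild type and 1335 and 1060 times in the deletion, with the same log2 difference, 0.99 ± 0.12. For both genes deletion replicate 2 was the higher of the deletion libraries.

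The counts of HXT6 and HXT7 kept nearly the same ratio in every library. HXT6 took 48.2%, 48.3%, 48.2% and 48.4% of the reads counted on the pair in wild-type replicates 1 and 2 and deletion replicates 1 and 2. The 95% Wilson interval ran from 44.7 to 51.8% in the library with the fewest reads on the pair and from 46.4 to 50.1% in the one with the most. A chi-square of the pair's counts over the 4 libraries was 0.020 on 3 degrees of freedom. That of HXT1 and HXT3, which share far fewer stretches, was 44.1. These genes also differed in their log2 difference, 0.85 against 0.24, so their chi-square is no control for shared reads. The alike carrier genes HXT15 and HXT16 had 8, 15, 15 and 10 reads against 8, 15, 14 and 10. Whether reads that match both genes of a pair were counted on both was not tested, and the treatment of such reads is not given in the sources used here; if they were, the level of each gene and any sum over both is too high, as given above. Summed to 1 feature, the pair had a log2 difference of 0.99.

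HXT2, the remaining high-affinity carrier gene and one with no stretch of 50 bases found elsewhere, lay the other way. It was counted 743 and 896 times in wild type and 1201 and 727 times in the deletion, or 367 and 322 CPM against 279 and 272 CPM. Both deletion libraries were below both wild-type libraries, with a log2 difference of -0.32 ± 0.10 that did not pass the threshold. The log2 difference of HXT2 was -0.40 without wild-type replicate 2, but -0.22 without wild-type replicate 1 and -0.21 when scaled to total gene counts.

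The low-affinity carriers differed in how closely the deletion libraries resembled each other. HXT1, which encodes the carrier induced by high glucose, was counted 126 and 146 times in wild type and 515 and 217 times in the deletion, or 62.2 and 52.5 CPM against 120 and 81.1 CPM. Deletion replicate 1 stood 1.48 times above deletion replicate 2, although both were above wild type. The log2 difference of HXT1 was 0.85 ± 0.16, and without deletion replicate 1 it was 0.51 and no longer passed. HXT3, the most abundant carrier gene here, was counted 808 and 1131 times in wild type and 2179 and 1187 times in the deletion. At 399 and 407 CPM against 507 and 443 CPM its libraries did not overlap, and the log2 difference was 0.24 ± 0.10, which did not pass and was 0.14 without deletion replicate 1.

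HXT4, which encodes a carrier made in low glucose, had the most even deletion libraries among the 4 genes that passed. It was counted 196 and 244 times in wild type and 744 and 453 times in the deletion, or 96.7 and 87.8 CPM against 173 and 169 CPM. Deletion replicate 1 was 1.02 times deletion replicate 2, and the log2 difference was 0.90 ± 0.11. HXT5, whose carrier is made in slow growth and on poor carbon sources, was scarce, with 9 and 14 reads in wild type against 50 and 19 in the deletion; its libraries did not overlap. Its log2 difference of 1.03 ± 0.35 was the highest of the 10 but did not pass, and without deletion replicate 1 it was 0.56. GAL2, which Gal4 activates on galactose, had 13 and 22 reads in wild type against 37 and 21 in the deletion, with overlapping CPM and a log2 difference of 0.19 ± 0.30, which was 0.075 without wild-type replicate 1 and 0.38 when wild-type replicate 2 was the library left out.

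The sensor genes showed no difference beyond the spread between libraries. SNF3, the sensor for low glucose, was counted 38 and 54 times in wild type and 81 and 49 times in the deletion, or 18.7 and 19.4 CPM against 18.8 and 18.3 CPM. RGT2, the sensor for high glucose, was counted 59 and 76 times in wild type and 119 and 81 times in the deletion, or 29.1 and 27.3 CPM against 27.7 and 30.3 CPM. For both genes the genotypes overlapped. The log2 differences were -0.04 ± 0.20 for SNF3 and 0.03 ± 0.17 for RGT2, and at these counts a change of the size of a standard error was not detectable. The sensors were alike in sequence, with 62.6% identical residues over their aligned part, and shared 31 to 33.4% with the 8 carriers, while HXT1 and HXT3 shared 86.6% with each other. Their predicted proteins, of 884 residues for Snf3 and 763 for Rgt2, are longer than the 541 to 592 residues of the carriers; the sensors are known for a long tail inside the cell.

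**Figure D3:**
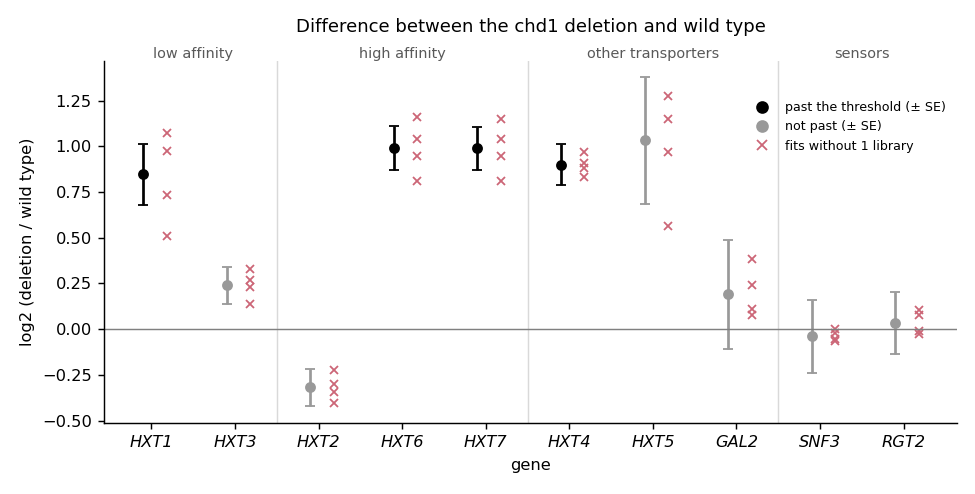
Log2 difference between the deletion and wild type for each gene; black points passed the threshold over all genes and grey points did not, bars are SE, and red crosses are the values in the 4 fits that each leave out 1 library. HXT4, HXT6 and HXT7 stay between 0.81 and 1.16 in every such fit, HXT1 spans 0.51 to 1.07, and HXT2 is below 0 throughout.

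With HXT2, HXT6 and HXT7 together as the high-affinity side, the balance between the affinity classes did not separate the genotypes. The ratio of HXT1 and HXT3 to HXT2, HXT6 and HXT7, in reads per kilobase, was 0.610 and 0.670 in wild type against 0.681 and 0.485 in the deletion. Deletion replicate 1 was the highest of the 4 libraries and deletion replicate 2 the lowest. The mean log2 ratio was -0.65 ± 0.10 in wild type and -0.80 ± 0.35 in the deletion, a difference of -0.15 that was smaller than the SD of the deletion libraries. It was 0.092 without deletion replicate 2, and 0.066 with HXT6 and HXT7 counted once. With HXT2 alone as the high-affinity side it was 0.64. HXT1 and HXT3 were higher and HXT2 lower in both deletion libraries than in both wild-type libraries. The ratio to HXT2 alone therefore did separate the genotypes.

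Shares of the reads of the 8 carrier genes show how the high-affinity class was divided, first on the counts as deposited. HXT2 took 27.9% and 26.0% of them in wild type (95% Wilson intervals 26.2 to 29.6 and 24.6 to 27.5) and 16% and 15.1% in the deletion (15.2 to 16.9 and 14.1 to 16.1). HXT6 and HXT7 together took 28.9% and 28.7% in wild type (27.2 to 30.6 and 27.2 to 30.2) and 36.9% and 45.5% in the deletion (35.9 to 38.0 and 44.1 to 46.9). With the reads of the pair counted once, its share was 16.9% and 16.7% in wild type against 22.7% and 29.4% in the deletion, and that of HXT2 32.6% and 30.4% against 19.7% and 19.6%. For HXT6 and HXT7 as deposited, the shares in the deletion libraries differed from each other beyond counting error, and both stood above wild type. A share also falls when reads on the other carriers rise. The level of HXT2 itself had a log2 difference of -0.32, which did not pass the threshold. HXT4 took 7.36% and 7.09% in wild type (6.43 to 8.41 and 6.28 to 8) and 9.93% and 9.41% in the deletion (9.27 to 10.6 and 8.62 to 10.3). The low-affinity pair took 35.1% and 37.1% in wild type (33.3 to 36.9 and 35.5 to 38.8) and 35.9% and 29.2% in the deletion (34.9 to 37.0 and 27.9 to 30.5), so that 1 of the deletion libraries lay among the wild-type values.

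**Figure D4:**
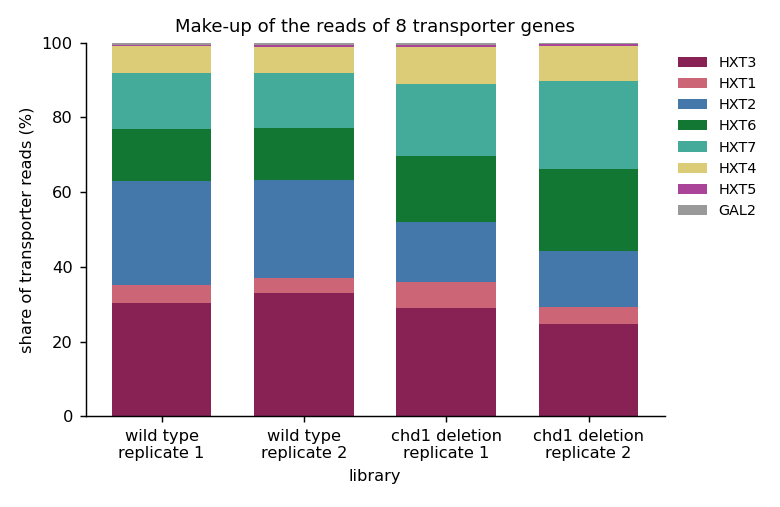
Share of the reads of 8 carrier genes taken by each gene in each library, in percent, stacked to the whole. On the counts as deposited, the HXT2 share is 27.9% and 26% in wild type against 16% and 15.1% in the deletion. HXT6 and HXT7 together are widest in deletion replicate 2, at 45.5%. A share also falls when reads on the other carriers rise, and the level of HXT2 itself had a log2 difference of -0.32, which did not pass.

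Carrier genes lie in tandem in 2 arrays, HXT7, HXT6 and HXT3 on chromosome IV (1154216 to 1164660) and HXT4, HXT1 and HXT5 on chromosome VIII (287081 to 296447), with 1636 to 3679 bases between neighbouring coding sequences. All 6 are on the minus strand. On chromosome IV the log2 difference went from 0.99 at HXT7 and HXT6 to 0.24 at HXT3, which did not pass. The genes on either side of the array did not pass either, YDR341C at -0.10 ± 0.10 (adjusted p = 0.644) and SVF1 at 0.05 ± 0.10 (adjusted p = 0.825). On chromosome VIII all 3 carrier genes lay between 0.85 and 1.03, but HXT5, with 9 to 50 reads in a library, did not pass. The flanking genes MSR1 (0.16 ± 0.21, adjusted p = 0.729) and YHR097C (0.20 ± 0.25, adjusted p = 0.729) did not pass either. The genes beside HXT2, SNF3 and GAL2 did not pass either; they were YMR010W (0.03), CLU1 (-0.02), SEC31 (-0.14), NUS1 (-0.11), EMP46 (0.24) and SRL2 (-0.03). Beside RGT2, ARF2 did not pass (0.15) and SCM3 had too few reads to be tested.

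**Figure D5:**
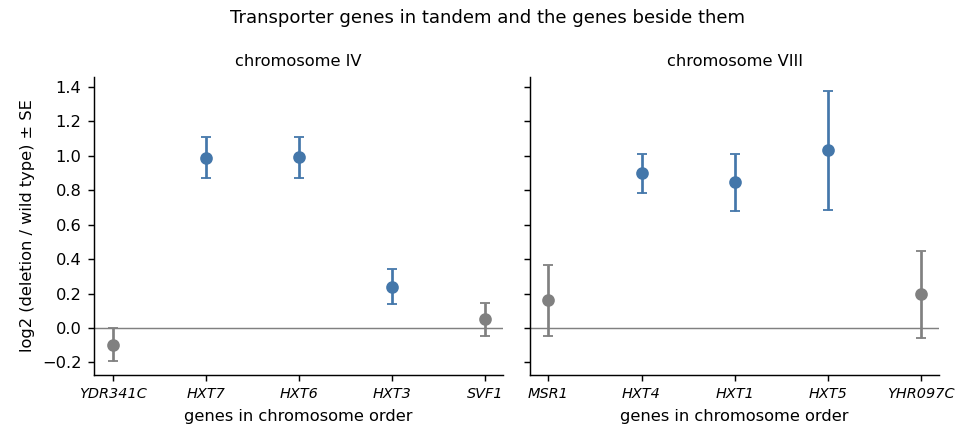
Log2 difference between the deletion and wild type, with SE, for the transporter genes in tandem (blue) and the next gene on either side (grey), in chromosome order at even spacing. The flanking genes lie between -0.10 and 0.20, and HXT3 at 0.24 is the lowest of the 6 transporter genes.

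Genes of the routes that set HXT expression are given as counts beside the shares of all genes, 4.74% past the threshold and 19.6% at an unadjusted p under 0.05. In lists of 5 to 17 genes those shares correspond to few genes or none, so nothing is read from counts near 0. Of 12 genes between the sensors and the HXT promoters, 0 passed in either direction with edgeR, 0 had an unadjusted p under 0.05 and 0 were called by DESeq2, which gave 8 of them no adjusted p; their median log2 difference was -0.006. The repressor gene RGT1 had 68.7 ± 3.01 CPM in wild type and 64.6 ± 4.13 in the deletion (-0.09 ± 0.13, adjusted p = 0.762). Of the corepressor genes, STD1 had a log2 difference of -0.06 ± 0.17 (adjusted p = 0.898) and MTH1 one of 0.53 ± 0.27 from 8.64 ± 1.03 to 12.3 ± 0.432 CPM (adjusted p = 0.286). Of 17 genes of the Snf1 kinase and Mig1 branch, 0 passed with edgeR, 3 had an unadjusted p below that threshold and 0 were called by DESeq2 (12 without an adjusted p), with a median of 0.12. MIG1 itself had 45.7 ± 1.06 CPM in wild type and 61.0 ± 0.214 in the deletion (0.42 ± 0.13, adjusted p = 0.0814), MIG2, which encodes a related repressor, a log2 difference of 0.51 ± 0.31 (adjusted p = 0.396) and HXK2, the main hexokinase gene in glucose, one of -0.07 ± 0.10 (adjusted p = 0.750).

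Of 14 genes of the Gpr1 and Ras route, by which glucose activates protein kinase A, 0 passed with edgeR, 0 had an unadjusted p below 0.05 and 0 were called by DESeq2, which gave 12 no adjusted p (median 0.02). Of the 5 tested genes of galactose use, the regulon that GAL2 belongs to, 0 passed with edgeR and 0 had an unadjusted p below 0.05 (median 0.12), and DESeq2 gave none an adjusted p. The other 9 HXT genes in the tables were scarce, with 1 to 43 reads in any library. Of these, 5 were tested and 0 passed with edgeR; 1 was below 0.05 before adjustment, the median log2 difference was -0.47, and DESeq2 gave none of the 9 an adjusted p. That gene was HXT8, named after its values were seen, with 15.1 ± 0.470 CPM in wild type and 8.48 ± 0.152 in the deletion (-0.84 ± 0.25, adjusted p = 0.0596). Of 14 tested genes of carbon source use that glucose represses, 1 passed with edgeR and 3 had an unadjusted p below 0.05. DESeq2 called 0 and gave 15 of the 16 listed no adjusted p. The gene that passed was HXK1, a hexokinase gene repressed in glucose. It had 105 and 120 reads in wild type against 362 and 379 in the deletion, or 51.8 and 43.2 CPM against 84.2 and 142 CPM. Deletion replicate 1 was 0.59 times deletion replicate 2, and both were above wild type. HXK1 rose by 1.23 ± 0.20 on the log2 scale (adjusted p = 7.98e-04). The median of those 14 was -0.15, and SUC2, the invertase gene that Mig1 represses, had a log2 difference of -0.38 (adjusted p = 0.153).

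The pattern over the 4 libraries was compared with that of 2402 other genes of at least 50 CPM on average, as the distance between log2 CPM values centred on each gene's mean. Nearest to HXT7 were PGM2, the major phosphoglucomutase gene (distance 0.197), YFR006W (0.258) and the cell wall gene CWP1 (0.273). Like HXT7, these genes were higher in deletion replicate 2 than in deletion replicate 1, PGM2 by the same ratio of 0.79 between replicate 1 and replicate 2. Nearest to HXT1 were YRO2 (0.351), the a-factor gene MFA2 (0.391) and SER3 of serine synthesis (0.394), at larger distances than those of HXT7. In MFA2 as in HXT1 deletion replicate 1 was the higher, 1.31 times replicate 2 against 1.48 times in HXT1. The ratio was only 1.12 in YRO2 and 1.02 in SER3. These distances describe 4 libraries and carry no test. The genes were picked on the same values, so a likeness in the order of the replicates follows largely from the choice.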

How the data were processed

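The authors sequenced total RNA from 4 libraries. CASAVA 1.8, TopHat and the build sacCer3 appear in the submitters' processing notes; not given in the sources used here are the counting program, its annotation, strand use and the treatment of reads with several positions. For each of 5816 genes the deposited tables give a whole-number count, a gene length and a normalized value that equals the count divided by length and by 1 constant per library. Intron tables hold no row for these genes and were not used. Coding positions and upstream sequence were read from the RefSeq R64 genome, in which 5813 gene identifiers were found; the deposited lengths exceed the coding lengths.

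Counts were tested with edgeR 4.0.16 in R 4.3.3 (quasi-likelihood, TMM, filterByExpr at a minimum count of 10, a model of genotype alone, Benjamini-Hochberg over all genes tested, threshold 0.05). The test was checked on simulated data. SE is the log2 difference divided by the root of F. DESeq2 1.42.0 was an alternative, with others listed in the closing section. It gave 4738 of the 5816 genes no adjusted p, through independent filtering or because they had no reads. The named genes are the 10 members, their neighbours, the 3 genes nearest in pattern to HXT1 and HXT7, RGT1, MTH1, STD1, MIG1, MIG2, HXK2 and list genes past the threshold; HXT8, HXT15, HXT16 and SUC2 were added later. The members, the lists and the motifs, the last chosen after the files were read, were picked with earlier results of these data known. Intervals are Wilson at 95%, from scipy 1.17.1. Coding sequences were aligned with biopython 1.88.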

Additional observations from a re-analysis of the deposited data

How the results depend on the processing

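The number of genes past the threshold, 260 in all, was 424 with a replicate block, 166 with DESeq2 and 133 to 577 when 1 library was left out (133 and 148 without deletion replicates 1 and 2, 577 and 360 without wild-type replicates 1 and 2). It was 62 (34 higher) when the constant recovered from the deposited normalized column served as library size, a setting chosen after seeing the data. Members past the threshold numbered 4 with RLE factors, total gene counts, both other filters, rRNA-overlapping genes left out, the deposited constant and the replicate block, 3 with HXT6 and HXT7 summed, 3 with DESeq2, which gave HXT1 no adjusted p, and 3 to 5 when 1 library was left out. The 3 was without deletion replicate 1 (HXT1 lost) and the 5 without wild-type replicate 2 (HXT2 gained). The labels do not say whether the replicate numbers pair the libraries. The differences between replicates 1 and 2 in the genotypes had r = 0.038 across 2408 genes. These genes are not independent, so this value cannot decide on a pairing.

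The low-affinity to high-affinity difference, -0.15, changed sign to 0.64 without HXT6 and HXT7 and to 0.066 with the pair counted once, a setting added after seeing the data; it was -0.40 to 0.092 when 1 library was left out. Counting the pair once also put HXT6 and HXT7 below HXT2 in the deletion, at log2 ratios of -0.75 and -0.67 in place of 0.25 and 0.33. HXT4 on the high-affinity side or no division by length left it negative. SNF3 turned from -0.04 to 0.064 with total gene counts, which moved the median of all genes to 0.11, and lay between -0.065 and 0.0010 when 1 library was left out; RGT2 lay between -0.024 and 0.10. The cause of these changes was not tested. Of the other alternatives for the log2 difference of single genes, 117 kept their direction and side of the threshold. At 9 to 81 reads in a library, HXT5, GAL2 and SNF3 allow no firm statement on small differences.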
